A study of Mus musculus with 33 samples.

Results

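Interleukins are secreted signals between leukocytes, stroma and progenitors, and each acts through a receptor of 1 or more membrane chains. The genes described here are the interleukins and interleukin receptors of a NanoString panel measured in mouse bone marrow (BM). They were chosen by name, as every endogenous probe whose symbol starts with Il and a digit, except 18 that were set aside (Il2ra, Il2rb, Il2rg, Il7r, Il4ra, Il15ra, Il21r, Il6ra, Il6st, Il10ra, Il13ra1, Il5ra, Il1rl1, Il1b, Il18, Il1r2, Il1rn and Il1rap). This left 41 of the 59 interleukin-named probes, among 750 endogenous probes in all. Of the 41, 26 encode ligands and 15 encode receptor chains.

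BM RNA came from 33 female C57BL/6 mice aged 6 to 8 weeks. Mice had received venetoclax, an inhibitor of the survival protein BCL2, or ruxolitinib, an inhibitor of the kinases JAK1 and JAK2, by gavage over 2 days, or the vehicle of the same drug, and BM was taken on day 1, 3 or 7 afterwards. The dose was 100 for venetoclax and 180 for ruxolitinib, given in mg/kg in the methods and in mg/ml in the deposited text. There were 3 mice for each drug and day, 2 mice for each vehicle and day, and 3 untreated mice. The study tested both drugs as part of conditioning before stem cell transplantation, and the question for these genes is which of them could be measured in BM and whether their levels differed between drug and vehicle.

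Many interleukins signal through receptors that dock JAK kinases and STAT factors, so that ruxolitinib acts directly below the IL-2, IL-3, IL-6, IL-10 and IL-12 receptor families. Receptors of the IL-1 and IL-17 families instead pass their signal through adaptor proteins such as MyD88 and ACT1 to NF-κB. Most interleukins are made by small numbers of activated cells, whereas many receptor chains are carried by resting cells.

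Each lane of the nCounter instrument counted the barcodes of 1 mouse. The total count of the 750 endogenous probes was between 18056 and 466096 per lane, with a median of 158944. Each lane has 8 control probes with no target, and a count was taken as above background where it exceeded their mean by more than 2 SD, which put the threshold at 1.83 to 7.85 counts. Counts were scaled to 11 housekeeping probes, and these normalised counts are used below. A single count equals 0.294 to 5.55 normalised counts according to the depth of the lane, so a value near background in a shallow lane is coarse. S100a8, a neutrophil gene and part of every BM sample, was the most abundant probe in all lanes. It took 46.5% to 68.8% of counts in the day 1 run, 47.3% to 65.1% in the day 3 run and 32.5% to 40.5% in the day 7 run. Each day has its own run, and each run also holds 1 of the untreated mice, so day and run cannot be told apart. In RNA of whole BM, fewer cells of a type and less RNA per cell cannot be told apart either. The study also counted cells by flow cytometry in BM of mice given the same drugs. After venetoclax it reported fewer NK cells, naive CD4 T cells and naive and central memory CD8 T cells. For ruxolitinib it reported no significant change.

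Most of the interleukin genes were at background. When a gene was counted as detected if 17 or more of the 33 lanes exceeded background, 11 of the 41 genes were detected (26.83%), compared with 515 of 750 endogenous probes (68.67%) and 17 of the 18 interleukin probes left out by the rule (94.44%). Detection split by role. Of the 15 receptors 8 were detected, and of the 26 ligands 3 were detected. Il17ra and Il16 were above background in all 33 lanes, followed by Il18rap in 32, Il3ra in 31, Il18r1 in 30 and Il12a in 30. Il1r1, Il11ra1 and Il17rb were each above background in 24 lanes, Il1rl2 in 22 and Il15 in 18. The nearest gene outside the threshold was Il12rb1, with 13 lanes.

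**Figure D1:**
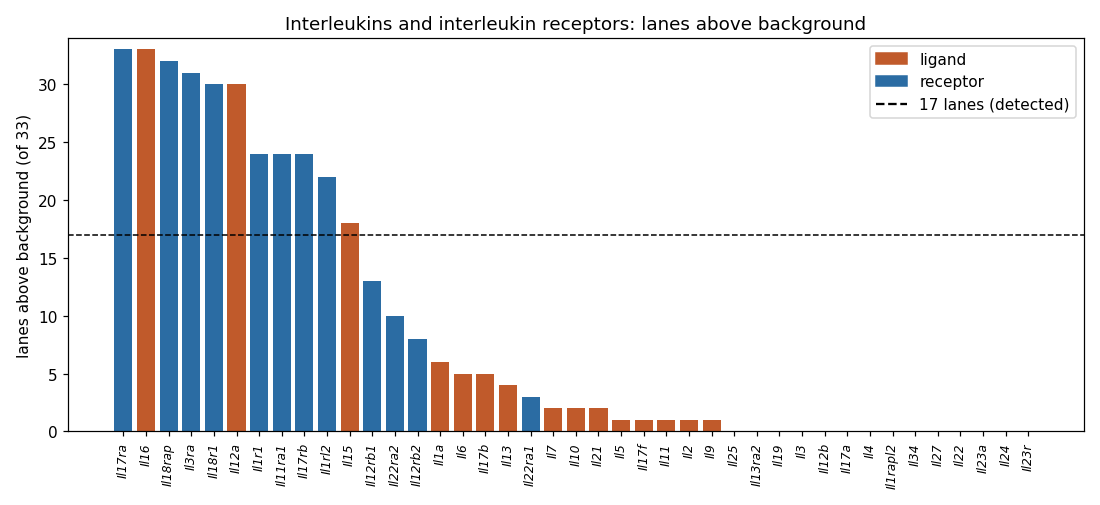
Number of lanes (of 33, y axis) in which each of the 41 genes (x axis) was above background, with ligands in orange, receptors in blue and the 17 lanes needed for detection as a dashed line. The 11 detected genes stand left of Il12rb1, and 14 genes at the right were above background in no lane.

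A further 11 genes were above background in 2 to 13 lanes: Il12rb1 in 13 lanes, Il22ra2 in 10, Il12rb2 in 8, Il1a in 6, Il6 and Il17b in 5, Il13 in 4, Il22ra1 in 3, and Il7, Il10 and Il21 in 2. Their highest raw counts in any lane lay between 5 and 14, and no count of these genes was above 2.62 times the background of its own lane. The other 19 genes were not detected. Il5, Il17f, Il11, Il2 and Il9 passed background in 1 lane each. Il25, Il13ra2, Il19, Il3, Il12b, Il17a, Il4, Il1rapl2, Il34, Il27, Il22, Il23a, Il24 and Il23r passed it in none. Their highest raw counts were 3 to 7, in the range of the control probes with no target, of which 1 reached 9 counts. This sets a limit on detection and does not show that the genes are silent.

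Fewer of the genes could be seen in the shallow lanes. In the 5 shallowest lanes (18056 to 47977 counts) 3 to 8 of the 41 genes were above background, with a median of 5. In the 5 deepest lanes (342596 to 466096 counts) 12 to 15 were above background, with a median of 13. Among deeper lanes the number did not simply follow depth. The highest number, 19, came from a venetoclax day 3 lane of 247389 counts with a background threshold of 2.18 counts, and a venetoclax day 1 lane of 79124 counts with the lowest threshold, 1.83, held 16. The untreated mice, with 37003 to 194748 counts, had 4, 7 and 10 genes above background. Differences in detection between groups were therefore not read as differences in expression.

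**Figure D2:**
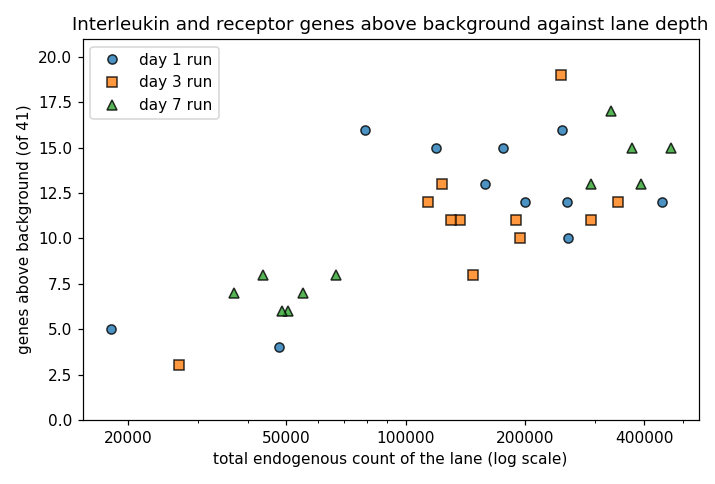
Number of the 41 genes above background in each lane (y axis) against the total endogenous count of the lane (x axis, log scale), 1 point per mouse, with the run as the symbol. Every lane of 66683 counts or fewer held 3 to 8 of the genes, and every deeper lane held 8 to 19.

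For the tests below, 655 genes that were above background in at least 2 lanes entered 1 edgeR quasi-likelihood model of the 13 groups, and p-values were adjusted by the Benjamini-Hochberg method over all 655. Of the 41 genes 22 entered: the 11 detected genes and the 11 seen in 2 to 13 lanes. Each gene was called where its adjusted p was under 0.05. Each lane is a separate mouse by its label, so the p-values measure the spread between mice.

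Among the comparisons of a drug with its vehicle on a single day, the smallest p-value belonged to the IL-18 receptor. Il18r1 encodes the chain that binds IL-18, and Il18rap the accessory chain needed for its signal, and both are carried by NK cells and by subsets of T cells. On day 1, the vehicle mice of venetoclax had 30.2 and 37.4 normalised counts of Il18r1, and the venetoclax mice had 5.55, 14.3 and 16.97. Thus the 3 venetoclax mice all lay below both vehicle mice. The value of 5.55 is a single raw count, below background, from the shallowest lane (18056 counts), so it is a bound more than a level. The log2 fold change was -1.27 (SE 0.36, 95% interval -2.01 to -0.54), or 2.42-fold lower, with an adjusted p of 0.0741 in edgeR. The gene was not called, and 0.153% of all 655 genes were (1 gene). It was the only one of the 22 genes with an unadjusted p under 0.05, compared with 10.4% of all genes. Without the shallowest lane the log2 fold change was -1.17 and the adjusted p 0.137 in edgeR, the lowest of the fits with 1 mouse left out. Over those fits the log2 fold change was -1.41 to -1.10. When the vehicle mice of both drugs served as control the adjusted p was 0.0289, and with only the 2 groups in the fit it was 0.0297, both under the threshold. In these fits 25 and 19 of all 655 genes were called. Against untreated mice, of which 1 came from each run, the log2 fold change was -0.49 with an adjusted p of 0.566, and in limma after background subtraction it was -2.45 with an adjusted p of 0.118.

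On day 3 the vehicle mice had 33.4 and 27.99 counts of Il18r1 and the venetoclax mice 23.5, 18.5 and 30.96. On day 7 the vehicle mice had 35.9 and 28.1 and the venetoclax mice 17.4, 28.4 and 24.98. On both days the groups overlapped by 1 mouse, and the log2 fold changes were -0.29 (SE 0.30) and -0.50 (SE 0.31), neither called. The day 7 value was -0.24 without the first vehicle mouse and turned to 0.0455 with both vehicles pooled as control and to 0.27 with untreated mice as control. The mean of the 3 daily differences, a comparison added after the values were seen, gave a log2 fold change of -0.69 for Il18r1 (SE 0.19, 95% interval -1.07 to -0.31), 1.61-fold lower, with an adjusted p of 0.0346. Il18r1 was the 1 gene called among the 22 there, and 2.9% of all genes were called (19 genes, all lower), with 9.16% at an unadjusted p under 0.05. This call was not stable. It was lost when any of 10 of the 15 mice was left out in turn, with the highest adjusted p, 0.356, without the first vehicle mouse of day 7. It was also lost in DESeq2 (adjusted p = 0.122), in limma (adjusted p = 0.0873) and with the replicate number as a block (adjusted p = 0.0624).

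The partner chain differed less. Il18rap had 38.8 and 36.6 counts in the vehicle mice of day 1 and 33.3, 31.8 and 21.2 in the venetoclax mice. All venetoclax mice again lay below both vehicle mice, but the log2 fold change of Il18rap was -0.38 (95% interval -1.11 to 0.34), with an adjusted p of 0.813 in edgeR, and over the 3 days it was -0.10 (95% interval -0.48 to 0.27). Whether the chains differed from each other was not tested.

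Marker genes of the cells that carry this receptor were measured in the same lanes. The summed normalised count of 7 T cell markers (Cd3d, Cd3e, Cd3g, Cd8a, Cd4, Cd5 and Cd6) was 34.3 to 77.6 in venetoclax mice and 58.2 to 69.1 in vehicle mice on day 1. It was 35.7 to 46.3 compared with 75.6 to 103.8 on day 3, and 40.9 to 68.8 compared with 81.3 to 134.8 on day 7. On days 3 and 7 the T cell sums of drug and vehicle mice therefore did not overlap. The sum of 8 NK cell markers (Ncr1, Klrd1, Klrk1, Klra7, Gzma, Gzmb, Prf1 and Eomes) was 54.2 to 110.9 compared with 66.9 to 83.1 on day 1, 85.5 to 114.5 compared with 69.2 to 97.2 on day 3, and 98.4 to 130.4 compared with 105.5 to 120.8 on day 7, and overlapped on each day. The highest venetoclax sums of day 1, 77.6 for T cells and 110.9 for NK cells, both come from the shallowest lane (18056 counts). A single count equals 5.55 normalised counts there, and background stands at 24.35 for each probe. The overlap on day 1 is therefore uncertain for both lists. None of the 7 and none of the 8 markers was above background in every lane, and each was above it in at least 1. Single markers also differed. In the mean over the 3 days of venetoclax, Cd3d (-0.94, adjusted p = 0.0153 in edgeR) and Cd8a (-1.90, adjusted p = 0.0139 in edgeR) were called lower, 2 of the 7 T cell markers, and none of the 8 NK cell markers was called. On day 1 Klrd1, a receptor chain of NK cells, had a log2 fold change of -1.45 (SE 0.42, unadjusted p = 0.00157, adjusted p = 0.0814 in edgeR), with all venetoclax mice below both vehicle mice. It was 1 of 4 NK cell markers with a negative value that day, and the other 4 were positive, up to 0.82, with a median of -0.03 over the 8. The part of these markers in the Il18r1 result was not tested.

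With ruxolitinib, Il18r1 did not keep 1 direction. The vehicle mice had 26.6 and 31.5 counts on day 1 and the ruxolitinib mice 35.1, 16.4 and 21.3, while on day 7 the vehicle mice had 16.2 and 14.3 and the ruxolitinib mice 15.6, 23.8 and 31.1. The log2 fold changes were -0.29, -0.04 and 0.43 on days 1, 3 and 7, and the groups overlapped on each day. On day 1 the summed NK cell markers were 62.1 to 74.7 with ruxolitinib and 90.7 to 101.7 with vehicle, without overlap. Of these 8 markers 7 were lower, with a median of -0.67. None was called, and 2 were lower at an unadjusted p under 0.05 (25%, compared with 13.6% of all genes). The summed T cell markers were higher without overlap, at 72.8 to 77.1 and 65.0 to 66.8. The part of these markers in the Il18r1 values was not tested. Setting each drug against its own vehicle, the difference between venetoclax and ruxolitinib for Il18r1 was -0.99 on day 1 (SE 0.46, unadjusted p = 0.0386, adjusted p = 0.331 in edgeR) and -0.93 on day 7 (SE 0.45, unadjusted p = 0.0460, adjusted p = 0.998 in edgeR). Neither was called, and 1.68% of all genes were called on day 1 and 0.305% on day 7. With each mouse left out the difference was -1.20 to -0.64 on day 1 and -1.19 to -0.67 on day 7, and in limma after background subtraction it was -2.10 on day 1. On day 7 the vehicle mice of venetoclax, at 35.9 and 28.1 counts, also lay above those of ruxolitinib, at 16.2 and 14.3, a difference that was not tested.

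Sequence before these genes is given because they encode the receptor pair with the smallest p-value. In RefSeq annotation of GRCm38.p6 the genes Il1r2, Il1r1, Il1rl2, Il1rl1, Il18r1 and Il18rap follow each other on chromosome 1, so that 4 of the 11 detected genes lie in 1 cluster. The bases just before the first listed start of each gene, on the + strand and 5′ to 3′, are as follows, cut for Il18r1 where the end of Il1rl1 begins to overlap.
Il18r1 (chr1:40465419-40465551): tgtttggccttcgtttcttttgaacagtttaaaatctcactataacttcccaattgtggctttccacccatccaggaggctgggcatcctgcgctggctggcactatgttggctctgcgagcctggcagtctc
Il18rap (chr1:40515112-40515361): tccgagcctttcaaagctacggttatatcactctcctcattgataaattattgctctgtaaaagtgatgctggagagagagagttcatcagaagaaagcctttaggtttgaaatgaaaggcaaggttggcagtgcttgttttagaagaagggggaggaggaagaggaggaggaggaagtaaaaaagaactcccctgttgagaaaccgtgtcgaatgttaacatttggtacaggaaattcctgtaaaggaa
Windows of 250 bases were searched on both strands for TTCNNNGAA (the GAS element bound by STAT factors), the core of the interferon response element, the AP-1 site, an NF-κB site and AGATAA (the site of GATA factors). They occur in 7.02%, 2.98%, 6.75%, 1.41% and 9.99% of all 32851 listed windows. None was in the stretches printed here, which is why the sequences above hold no capitals. The window before the third listed start of Il18r1 held TTCTGGGAA and TTCCCAGAA, 219 and 152 bases before that start. A match to such letters is a description of the sequence only.

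**Figure D3:**
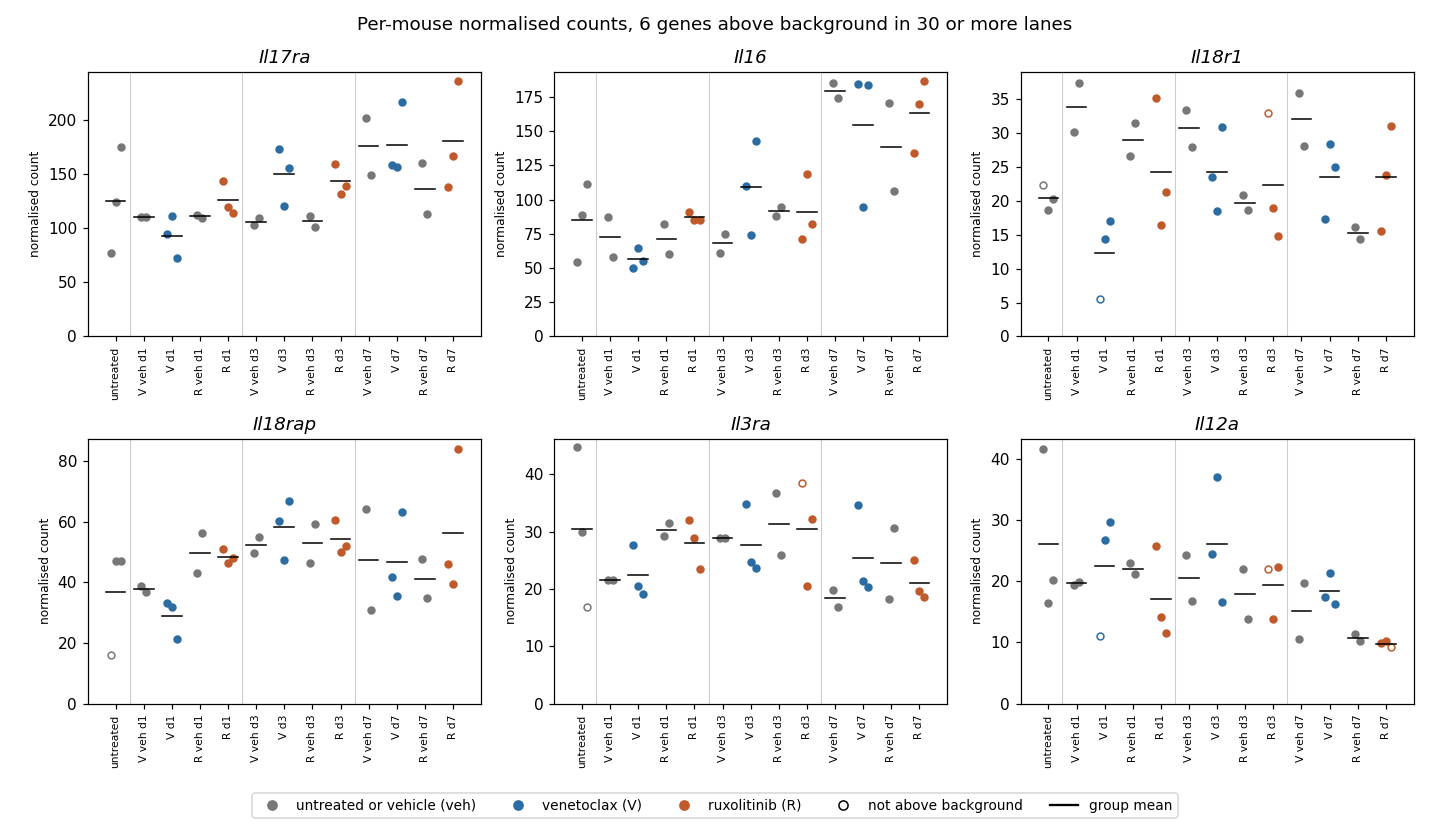
Normalised count (y axis, from 0) of 6 genes in each mouse, by group (x axis), with vehicle (veh) and untreated mice in grey, venetoclax (V) in blue, ruxolitinib (R) in orange, open circles for values not above background and bars for group means. The lowest group mean of Il18r1 is that of the venetoclax mice of day 1, at 5.55 to 16.97, and the 4 highest group means of Il16 are those of day 7.

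The other detected receptors of the IL-1 family were close to background. Il1r1, which encodes the signalling receptor of IL-1α and IL-1β, had a median of 8.20 normalised counts. On day 3 the vehicle mice of venetoclax had 16.1 and 10.8 counts of Il1r1, and the venetoclax mice had 2.61, 6.18 and 7.20, of which the first was not above background. All venetoclax mice were below both vehicle mice, and the log2 fold change was -1.24 (SE 0.46, 95% interval -2.17 to -0.31), 2.36-fold lower, with an adjusted p of 0.311 in edgeR. It was -0.60 against untreated mice, -1.61 in limma after background subtraction and -1.57 to -0.92 with each mouse left out. Il1r1 was not called, and neither was any other of the 655 genes on that day (0%). Of the 22 genes, Il1r1 and Il16 had an unadjusted p under 0.05, compared with 10.7% of all genes. On days 1 and 7 the log2 fold changes of Il1r1 were positive, at 0.37 (SE 0.61) and 0.33 (SE 0.53). The groups overlapped on both days, and neither value was called. Il1rl2, the receptor of the IL-36 cytokines, had a median of 7.55 counts and ranged from 2.12 to 16.6. Its log2 fold changes over the 6 drug comparisons lay between -0.59 and 0.67 and none was called. Among the other IL-1 family genes, the ligand Il1a was above background in 6 lanes and Il1rapl2 in none.

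Il17ra, the shared signalling chain for IL-17A, IL-17F and IL-25, was above background in all lanes, whereas of its ligands Il17a and Il25 were above background in no lane and Il17f in 1. Il17ra ranged from 72.1 to 236.1 normalised counts, a 3.27-fold range over the 33 mice. On day 3 the vehicle mice of venetoclax had 102.6 and 109.0 counts and the venetoclax mice 173.2, 120.5 and 155.5. On the same day the vehicle mice of ruxolitinib had 111.4 and 101.4 and the ruxolitinib mice 159.6, 131.4 and 138.9. In both comparisons every drug mouse lay above both vehicle mice, with log2 fold changes of 0.50 (SE 0.26, adjusted p = 0.481 in edgeR) and 0.40 (SE 0.27, adjusted p = 0.998 in edgeR), and neither was called. On day 1 the ruxolitinib mice, at 113.8 to 143.7 counts, also lay above their vehicle mice, at 109.5 and 112.6. Il17ra was higher in 5 of the 6 drug comparisons, by at most 1.41-fold. On day 3 of ruxolitinib the summed B cell markers were 247.9 to 363.2, compared with 523.9 to 538.8 with vehicle, without overlap. All 7 B cell markers were lower and none was called. Of the 7, 4 had an unadjusted p under 0.05 (57.1%, compared with 4.73% of all genes). The part of these markers in the day 3 values of Il17ra and Il17rb was not tested. Il17rb, the chain that pairs with Il17ra for IL-25, had a median of 6.92 counts. On day 3 it had 7.35 and 1.62 counts in the vehicle mice of ruxolitinib and 5.50, 5.14 and 8.68 in the ruxolitinib mice. The lowest vehicle value and the ruxolitinib value of 5.50, a single raw count, were not above background. The log2 fold change of Il17rb was 0.62 (SE 0.67, adjusted p = 0.998 in edgeR) and changed sign without the second vehicle mouse (-0.25) and against untreated mice (-0.89). Il17b was above background in 5 lanes.

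IL-12 is made of the subunits encoded by Il12a and Il12b, of which Il12a was above background in 30 lanes and Il12b in none. Il12a also encodes 1 subunit of IL-35. Its normalised count ranged from 9.32 to 41.6 with a median of 19.4. In the vehicle mice of venetoclax it was 19.4 and 19.9 on day 1, 24.2 and 16.7 on day 3, and 10.5 and 19.7 on day 7. In the venetoclax mice it was 11.1, 26.8 and 29.7 on day 1, 24.4, 37.1 and 16.6 on day 3, and 17.4, 21.3 and 16.2 on day 7. The value of 11.1 is 2 raw counts in the shallowest lane and was not above background, and the other 2 venetoclax mice of day 1 lay above both vehicle mice. With that lane the groups overlapped on each day, and the log2 fold changes were 0.38, 0.37 and 0.49 with SE of 0.39, 0.35 and 0.42. With ruxolitinib they were -0.37, -0.01 and -0.14, and none was called. The receptor chains Il12rb1 and Il12rb2 were above background in 13 and 8 lanes, with at most 11 and 14 raw counts. Il23a, a subunit of IL-23, its receptor Il23r and Il27 were above background in no lane. The bases before the first listed start of Il12a, the only detected subunit of this family, are given next (GRCm38.p6, + strand).
Il12a (chr3:68690394-68690643): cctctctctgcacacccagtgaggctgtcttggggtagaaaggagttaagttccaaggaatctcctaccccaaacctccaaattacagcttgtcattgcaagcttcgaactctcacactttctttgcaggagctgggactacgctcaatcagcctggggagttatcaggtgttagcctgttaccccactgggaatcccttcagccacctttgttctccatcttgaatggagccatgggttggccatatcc
None of the 5 motifs above was found in it.

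Among the ligands of the common gamma chain receptors, Il15, which sustains NK cells and memory CD8 T cells, was the only one detected, and it stood near background. On day 7 the vehicle mice of ruxolitinib had 4.58 and 4.10 normalised counts of Il15 and the ruxolitinib mice 7.38, 8.81 and 12.4. The highest of these is 4 raw counts in a lane of 48756 counts and was not above background, and neither was the vehicle value of 4.10 (2 raw counts). Background stood at 14.95 normalised counts in that ruxolitinib lane and at 9.86 in that vehicle lane. As counted, all 3 ruxolitinib mice lay above both vehicle mice, but their order and the size of the difference are uncertain. The log2 fold change was 0.92 (SE 0.44, 95% interval 0.02 to 1.82), with an adjusted p of 0.999 in edgeR. On day 1 the order was the opposite: the vehicle mice had 9.16 and 9.58 counts and the ruxolitinib mice 2.51, 7.92 and 6.56. The lowest of these, 2.51, is 4 raw counts against a threshold of 4.58 and was not above background. The log2 fold change of Il15 was then -0.71 (SE 0.39, adjusted p = 0.460 in edgeR). It was -0.38 without that mouse and 0.49 against untreated mice. Neither was called, and over the 3 days the mean difference was 0.02 (95% interval -0.52 to 0.56). Several marker sums lay apart in these lanes. On day 7 the B cell sum was 226.3 to 314.2 with ruxolitinib and 499.997 to 502.1 with vehicle. Of 7 B cell markers 4 were lower at an unadjusted p under 0.05 (57.1%, compared with 3.51% of all genes). On day 1 the stromal and endothelial sum was 304.7 to 372.7 and 160.6 to 165.7. Of its 8 markers 1 was called, Cxcl12, higher (12.5%, compared with 2.75% of all genes). The NK cell sum of day 1 is given with Il18r1. The part of these markers was not tested. With venetoclax the Il15 values overlapped on each day, with log2 fold changes of 0.26, 0.01 and 0.13. In the untreated mice Il15 had 3.20, 4.48 and 3.37 counts, none above background. Il7 and Il21 were above background in 2 lanes each, Il2 and Il9 in 1 each and Il4 in none.

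Il16, a chemoattractant for CD4 cells that is made as a precursor by lymphocytes, was the best detected ligand, with 49.9 to 186.4 normalised counts. On day 3 the vehicle mice of venetoclax had 61.1 and 75.1 counts and the venetoclax mice 109.7, 74.2 and 142.6. The groups overlapped by 1 mouse, and the log2 fold change was 0.67 (SE 0.29, unadjusted p = 0.0285, adjusted p = 0.410 in edgeR). It was 0.36 against untreated mice, 0.46 with both vehicles pooled and 0.42 to 0.88 with each mouse left out. Marker genes also differed between these lanes at an unadjusted p under 0.05, with none called: 5 of 7 neutrophil markers were past it, all higher (71.4%, median 0.84 over the 7), 3 of 7 T cell markers, all lower (42.9%), 1 of 8 NK cell markers, higher, and 1 of 7 B cell markers, lower, compared with 10.7% of all genes. The summed neutrophil markers overlapped, at 88065 to 113289 with venetoclax and 95496 to 109097 with vehicle. This sum contains S100a8, which alone took 47.3% to 65.1% of all counts in the day 3 run. It therefore says little about the other neutrophil markers. The part of these markers in the day 3 values of Il16, Il17ra and Il1r1 was not tested. On day 1 the vehicle mice had 87.4 and 58.2 and the venetoclax mice 49.9, 64.8 and 55.1, a log2 fold change of -0.29 (SE 0.32). On day 7 it was -0.19 (SE 0.28). With ruxolitinib the log2 fold changes of Il16 were 0.30, 0.07 and 0.17, none of them called. On day 1 of ruxolitinib, the treated mice, at 84.8 to 91.0, lay just above their vehicle mice, at 82.4 and 60.6.

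Il3ra encodes the ligand-binding chain of the IL-3 receptor, found on progenitors, basophils and plasmacytoid dendritic cells. It had 16.9 to 44.8 normalised counts, a 2.66-fold range over the 33 mice that was the narrowest of the 11 detected genes. In all 6 drug comparisons its 95% interval, as computed, lay within a 2-fold difference in either direction, with log2 fold changes from -0.22 to 0.32. For Il3ra with venetoclax on day 7 (0.32, SE 0.33) the unadjusted p was 0.418 in edgeR. That p is larger than the SE implies, so this interval may be too narrow. Il3, the ligand, was above background in no lane, and neither was Il13ra2. Il5 was above background in 1 lane and Il13 in 4. Il11ra1, the binding chain of the IL-11 receptor, had a median of 7.19 counts. RefSeq also lists Il11ra2, a close copy of this gene, and the probe may not tell them apart. Its highest value, 33.3, was 6 raw counts in the shallowest lane, and its 6 log2 fold changes lay between -0.46 and 0.93 with none called. The ligand Il11 was above background in 1 lane and Il6, a driver of the acute phase response, in 5. Of the IL-10 family, the ligand Il10 was seen in 2 lanes and Il19, Il22 and Il24 in none, while Il22ra2, which encodes a soluble binding protein for IL-22, was seen in 10 lanes and Il22ra1 in 3.

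**Figure D4:**
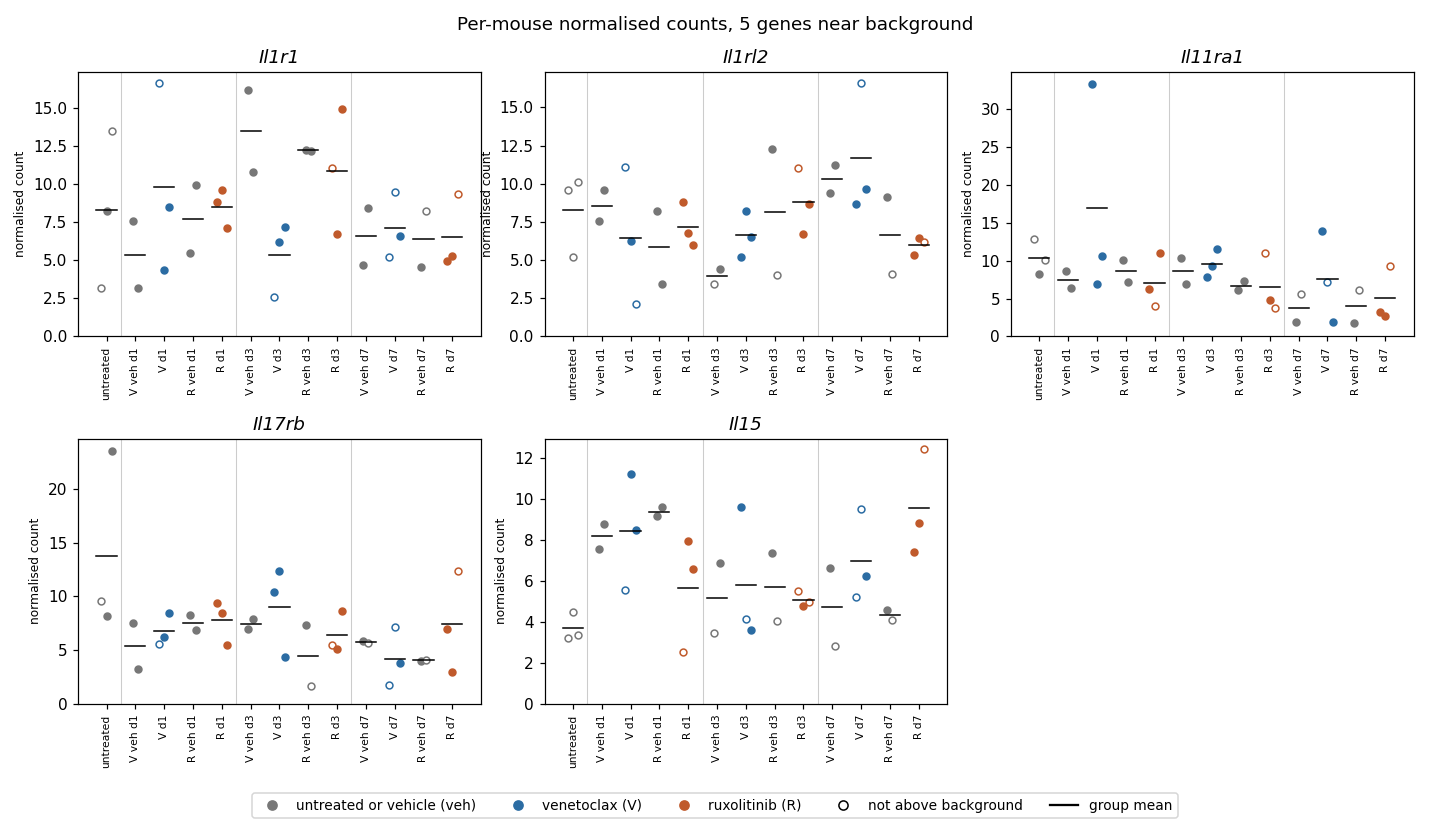
Normalised count (y axis, from 0) of the 5 detected genes nearest to background in each mouse, by group (x axis), with colours, open circles and bars as in the plot of the 6 better detected genes. Many values are open circles, and 6 raw counts in the shallowest lane stand at 33.3 for Il11ra1.

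Over the 6 drug comparisons none of the 22 genes was called. The share of all 655 genes called was 0.153% for venetoclax on day 7, 2.75% for ruxolitinib on day 1 and 0.153% for ruxolitinib on day 3 and on day 7, besides the values for venetoclax on days 1 and 3 given with Il18r1 and Il1r1. At an unadjusted p under 0.05 the 22 genes gave 0 for venetoclax on day 7 (4.73% of all genes), 0 for ruxolitinib on day 1 (13.6%), 0 for ruxolitinib on day 3 (4.73%) and 1, Il15, for ruxolitinib on day 7 (3.51%). The medians of the log2 fold change over the 22 genes were 0.11, 0.24 and 0.33 for venetoclax on days 1, 3 and 7, and 0.05, 0.01 and 0.12 for ruxolitinib. Over the 11 detected genes alone the medians were -0.03, 0.21 and 0.12 for venetoclax, and -0.06, -0.03 and 0.21 for ruxolitinib. Over all genes tested they were -0.02, 0.06 and -0.01, and 0.13, 0.02 and 0.02. The genes with the smallest p where none reached 0.05 were Il18r1 and Il6 for venetoclax on day 7, Il15 and Il1a for ruxolitinib on day 1, and Il17ra and Il17rb for ruxolitinib on day 3. Il6 (log2 fold change 1.29, SE 1.04, adjusted p = 0.999 in edgeR) and Il1a (1.44, SE 0.95, adjusted p = 0.564 in edgeR) were each above background in 1 of the 5 mice compared. With each mouse left out Il1a lay between 0.32 and 2.47. Without the first vehicle mouse Il6 was at -0.53, and against untreated mice Il6 and Il1a were at -0.57 and -0.61.

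The precision differed between the genes. The intervals were computed from the log2 fold change and the test statistic. For some values they may be narrower than the p-value implies, as for Il3ra with venetoclax on day 7. Of the 66 values of the 11 detected genes in the 6 drug comparisons, 64 lay within a 2-fold difference in either direction and 56 within 1.5-fold. For 27 of the 66 the whole 95% interval lay within 2-fold, most of them from Il3ra (6 of 6), Il17ra, Il16 and Il18rap (5 of 6 each). For Il1rl2, Il11ra1, Il17rb and Il15 every interval reached past a 2-fold difference in at least 1 direction.

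**Figure D5:**
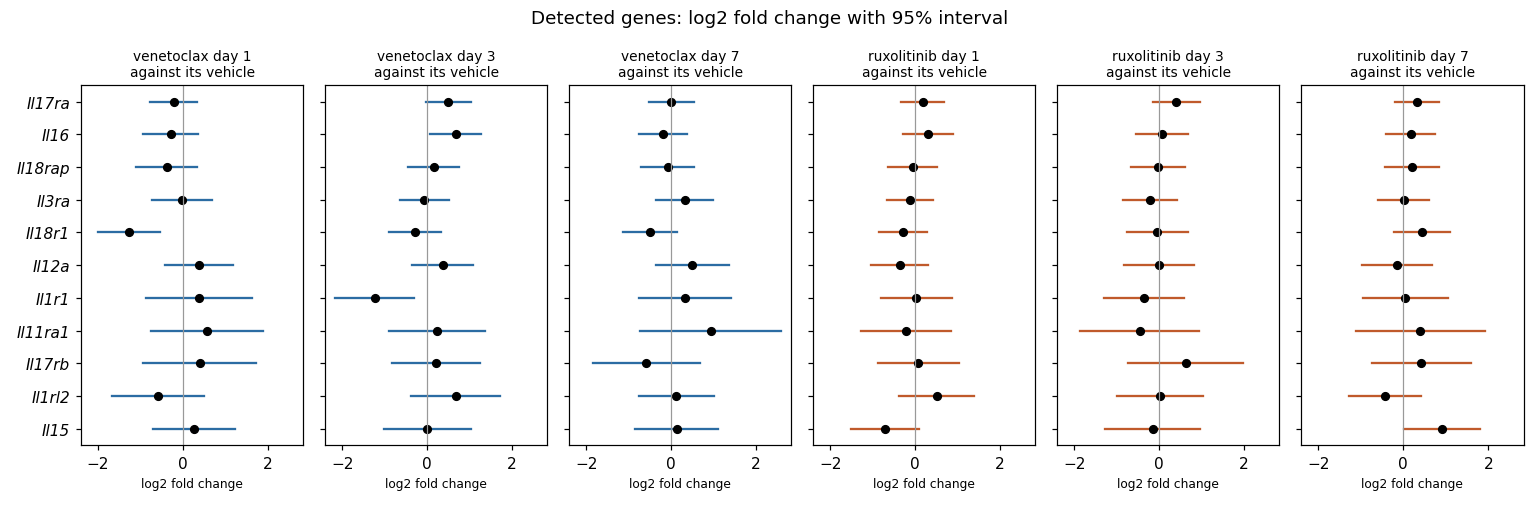
Log2 fold change (x axis, points) with its 95% interval (lines) of the 11 detected genes in each of the 6 comparisons of a drug with its vehicle. Intervals that leave out 0 belong to Il18r1 with venetoclax on day 1, Il1r1 and Il16 with venetoclax on day 3, and Il15 with ruxolitinib on day 7, and none was called.

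Between the drugs, each taken against its own vehicle, 0 of the 22 genes were called on days 1, 3 and 7. At an unadjusted p under 0.05 there was 1 gene on day 1, 0 on day 3 and 1 on day 7, Il18r1 in both cases, compared with 13.4%, 3.05% and 3.82% of all genes. On day 3, when 0.153% of all genes were called, the smallest p-values belonged to Il16 (0.60, SE 0.42) and Il1r1 (-0.88, SE 0.65), both with an adjusted p of 0.999 in edgeR. With each mouse left out they lay between 0.35 and 0.89 and between -1.43 and -0.48, and Il1r1 was at -0.29 in limma after background subtraction. Averaged over the 3 days, ruxolitinib and its vehicle gave no call among the 22 genes (1.22% of all genes called, and 8.85% at an unadjusted p under 0.05), the smallest p-values being those of Il17ra (0.30, SE 0.15, adjusted p = 0.551 in edgeR) and Il7 (0.75, SE 0.57, adjusted p = 0.619 in edgeR). Il7 was above background in 1 of these 15 lanes, and its value was 0.057 without the first vehicle mouse of day 7. This mean over days was also added after the values were seen.

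Comparing vehicle-treated with untreated mice, none of the 22 genes was called, and no other gene was (0% of 655). Each untreated mouse came from a different run, and the model has no term for run. Differences between runs therefore add to the spread of the untreated mice. Over all genes the number called was 0 to 8 in the alternative settings and 0 to 6 with each mouse left out. At an unadjusted p under 0.05, 5 of the 22 genes were lower in vehicle-treated mice: Il10, Il22ra1, Il17rb, Il22ra2 and Il7. Among all genes 11.5% were past that p, 72 of 75 lower. The largest log2 fold changes were -2.27 for Il22ra1 (SE 0.88, adjusted p = 0.389 in edgeR) and -2.02 for Il10 (SE 0.73, adjusted p = 0.370 in edgeR). Both lay at background, with Il10 above it in 0 of the 15 mice and Il22ra1 in 1 of 15. Il17rb had 9.60, 8.22 and 23.6 normalised counts in the untreated mice, of which the highest is 7 raw counts, and 1.62 to 8.24 in those given vehicle. The log2 fold change of Il17rb was -1.07 (SE 0.44, adjusted p = 0.391 in edgeR). Il22ra2 was at -1.64 (SE 0.72, adjusted p = 0.398 in edgeR) and above background in 4 of 15 mice, and Il7 was at -1.62 (SE 0.77, adjusted p = 0.409 in edgeR) and above background in 0 of 15. These sizes were not stable. With each mouse left out Il22ra1 lay between -3.41 and -1.23, Il10 between -2.78 and -1.69, Il22ra2 between -2.53 and -0.88, Il7 between -2.36 and -0.99 and Il17rb between -1.58 and -0.64, the ends belonging to fits without 1 of the 3 untreated mice. In limma after background subtraction Il22ra1 was at -1.21, Il22ra2 at -0.70, Il10 at -0.42, Il17rb at -0.25 and Il7 at -0.00040. Of the 3 untreated lanes, those with 37003 and 47977 counts are among the 5 shallowest of the study, where a single count weighs most.

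The clearest differences among these genes were between days, each of which is also a run. Comparing vehicle-treated mice of day 7 with those of day 1, a comparison added after the values were seen, 4 of the 22 genes were called, while 30.1% of all genes were called (197, of which 131 were higher) and 39.1% had an unadjusted p under 0.05. Il16 had 87.4, 58.2, 82.4 and 60.6 counts on day 1 and 184.8, 174.1, 170.3 and 106.6 on day 7, with no overlap. It rose by a log2 fold change of 1.17 (SE 0.22, adjusted p = 0.000391 in edgeR), 2.25-fold. Il17ra was 109.5 to 112.6 on day 1 and 112.7 to 202.0 on day 7, barely apart, and rose by 0.52 (SE 0.20, adjusted p = 0.0458 in edgeR). Il11ra1 fell by 1.59 (SE 0.54, adjusted p = 0.0233 in edgeR), from 6.37 to 10.1 counts down to 1.83 to 6.15. Of the 4 vehicle mice of day 7 only 2 were above background for Il11ra1, and the values of 5.62 and 6.15, 2 and 3 raw counts, were not, so the size of this change is uncertain. Il12a fell by 0.82 (SE 0.30, adjusted p = 0.0350 in edgeR), with 1 vehicle mouse of day 7 in the range of day 1. Il15 was not called (-0.76, SE 0.34, adjusted p = 0.0942 in edgeR), but it was with TMM scaling (-0.94, adjusted p = 0.0289) and with all 20 housekeeping probes (-0.96, adjusted p = 0.0337). The untreated mouse of each run, which had no treatment day, had 54.4, 88.9 and 111.2 counts of Il16 in the runs of days 1, 3 and 7, and 76.8, 124.0 and 175.3 counts of Il17ra. For both genes the untreated mouse of the day 7 run was thus the highest of the 3. The untreated mice had 41.6, 16.4 and 20.2 counts of Il12a. For Il11ra1 the untreated mice of the day 1 and day 7 runs were not above background, so their order is not given. The median log2 fold change of all genes was 0.19 in this comparison and -0.01 with TMM scaling, under which Il17ra was at 0.30 and no longer called (adjusted p = 0.258) and Il16 stayed called. Of the 4 genes, Il16 was the only one called in each of the 11 alternative settings and without each of the 8 mice. With each of the 8 mice left out in turn, Il11ra1 stayed called in 4 of the 8 fits, Il17ra in 2 and Il12a in 1, and all 3 lost their call without the first vehicle mouse of either drug on day 7. The size of the change also shrank there, to -1.02 and -0.97 for Il11ra1 without the first vehicle mouse of venetoclax and of ruxolitinib, to -0.49 for Il12a without that of venetoclax, and to 0.38 and 0.36 for Il17ra. In the 11 settings Il11ra1 and Il12a lost it in 3 each and Il17ra in 6.

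Marker genes of several cell types were measured in these same lanes, where 30.1% of all genes were called. Of 7 neutrophil markers 6 were called (4 higher and 2 lower on day 7), of 7 B cell markers 4 (2 higher and 2 lower), of 4 mast cell and basophil markers 2, of 7 monocyte and macrophage markers 2, of 8 NK cell markers 2 and of 7 T cell markers 1, the last 4 lists with higher calls only. The share called was 85.7% of the neutrophil, 57.1% of the B cell and 50% of the mast cell and basophil markers, above that of all genes, while 28.6% of the monocyte and macrophage, 25% of the NK cell and 14.3% of the T cell markers lay below it. All 7 T cell markers had a positive log2 fold change, with a median of 0.36. The summed normalised count of the T cell markers was 58.2 to 69.1 on day 1 and 79.4 to 134.8 on day 7, without overlap. That of the neutrophil markers, all above background in every lane, was 79392 to 101811 on day 1 and 49188 to 58746 on day 7, also without overlap. This sum contains S100a8, the probe with the highest count in each run, whose log2 fold change was -0.998 (SE 0.27), whereas 5 of the 7 neutrophil markers were higher on day 7, with a median of 1.28 over the 7. The sums of the NK cell markers (66.9 to 101.7 and 82.0 to 120.8) and of the B cell markers (419.8 to 520.0 and 499.997 to 575.8) overlapped. Those of the monocyte and macrophage markers (510.7 to 633.3 and 702.9 to 867.9), of the mast cell and basophil markers (37.5 to 45.3 and 53.3 to 87.1) and of 8 stromal and endothelial markers (160.6 to 193.1 and 220.3 to 254.9, 1 of 8 called) were higher on day 7 without overlap. The part of these markers in the results for Il16, Il17ra, Il11ra1 and Il12a was not tested.

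Of a list of 35 genes that carry interleukin signals inside the cell (JAK, STAT, SOCS, MyD88, IRAK, TRAF and NF-κB genes and lineage factors), 33 were on the panel and 31 entered the test. None of the 31 was called in any comparison of a drug with its vehicle on a single day, in the differences between drugs or in vehicle-treated against untreated mice. On day 1 of venetoclax 5 of 31 had an unadjusted p under 0.05 (Jak2, Jak3, Rela, Socs3 and Tyk2), 3 higher and 2 lower, or 16.1% compared with 10.4% of all genes. In the mean over the 3 days of venetoclax 1 of 31 was called, Rela, a subunit of NF-κB, lower, or 3.23% compared with 2.9% of all genes. Between days 7 and 1 of the vehicle-treated mice 12 of 31 were called, 6 in each direction, or 38.7% compared with 30.1% of all genes.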

How the data were processed

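The authors deposited raw barcode counts, 1 lane per mouse, before any normalisation, so the normalised values of nCounter Advanced Analysis that the methods name were not used here. The methods name a PanCancer immune panel, the deposited text an immunology panel, and the methods give 3-4 mice per group. Scaling used housekeeping probes: 11 of the 20 exceeded background in all lanes, and their geometric mean set the factor of a lane. The background threshold of a lane was the mean of 8 probes without a target plus 2 SD. For testing, a gene had to exceed it in 2 or more lanes, which left 655 genes. A single edgeR (version 4.0.16, R version 4.3.3) quasi-likelihood model held the 13 group means of all 33 lanes, with 20 residual degrees of freedom and a common dispersion of 0.0406. P-values were adjusted by Benjamini-Hochberg, and 0.05 was the threshold. An SE belongs to the log2 fold change beside it and was computed from it and the edgeR test statistic. For some genes the edgeR p-value is larger than this SE implies, so those intervals may be too narrow. DESeq2 1.42.0 and limma 3.58.1 on log2(normalised count + 1) were alternatives.

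Of the 41 genes 40 were matched to RefSeq (GRCm38.p6) by accession, used for names, gene order and sequence, and promoter windows were listed for 9 of the 11 detected genes (not for Il17ra and Il15). The header of the day 3 run reads day 2. No 2 lanes were identical. Intervals and background cover counting error and the spread between mice only. The genes and lists were chosen with earlier results of these data known. Genes are named with their lanes above background, detected genes with their counts, and a fold change is given where the unadjusted p was under 0.05, or for the 2 smallest p-values where none was. The values of other detected genes were added to describe each family. Replicate numbers are shared between groups, but no pairing of mice is described.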

Additional observations from a re-analysis of the deposited data

How the results depend on the processing

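The number of detected genes was 11 with a background of the mean plus 3 SD and with the highest negative control probe, and 12 in the 23 lanes of at least 100000 counts, where Il12rb1 was added. The count of 0 called genes held under the alternatives run in 6 of the 10 comparisons of the design. In the others, venetoclax on day 1 gave 1 (Il18r1) with only the groups compared and 1 with both vehicles pooled, where 19 and 25 of all genes were called. Untreated mice as control gave 1 (Il16) for venetoclax on day 7 and 2 (Il12a and Il16) for ruxolitinib on day 7, where 66 and 87 of all 655 genes were called, and 2 of the 3 untreated mice came from other runs. Vehicle-treated against untreated mice gave 0 to 1 when each mouse was left out (1, Il22ra1, without untreated replicate 2).

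For the mean over the 3 days of venetoclax the count of 1 became 0 with all 20 housekeeping probes, DESeq2, limma on log2 values, limma after background subtraction, the replicate block, and without the 2 lanes under 30000 counts, and was 0 to 1 with each mouse left out. The log2 fold change of Il18r1 stayed between -1.13 and -0.65 in these settings and between -0.76 and -0.60 with each mouse left out. For day 7 against day 1 of the vehicle-treated mice the count of 4 became 2 with total count scaling, 1 with limma on log2 values and 1 with limma after background subtraction, rose to 5 with TMM scaling, with all 20 housekeeping probes (Il15 and Il18r1 gained and Il17ra lost in both) and with only the groups compared (Il18r1 gained), and was 1 to 4 with each mouse left out. The cause was not tested.

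Some log2 fold changes that were not called changed sign. For venetoclax on day 7, Il18r1 was 0.0455 with both vehicles pooled and 0.27 against untreated mice, and Il6 was -0.57 against untreated mice and -0.53 to 2.06 with each mouse left out. Against untreated mice Il15 was 0.49 and Il1a -0.61 for ruxolitinib on day 1, and Il17rb -0.89 for ruxolitinib on day 3, where it was -0.25 to 1.87 with each mouse left out.

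With the replicate number as a block, no call changed among the 22 genes other than Il18r1 in the mean over the 3 days of venetoclax (0 called, log2 fold change -0.73, adjusted p = 0.0624). The differences between replicates 1 and 2 of a drug and its vehicle correlated at -0.108 to 0.225 over 655 genes, so the numbers were not taken to pair the mice. The number of all genes called moved between settings, for example from 3 to 77 for ruxolitinib on day 1 (18 reported), from 0 to 25 for venetoclax on day 1 (1 reported), from 0 to 66 and from 0 to 87 for venetoclax and ruxolitinib on day 7 (1 each reported), from 0 to 10 for ruxolitinib on day 3 (1 reported), from 0 to 61 for the difference between drugs on day 1 (11 reported), from 0 to 15 for the mean over 3 days of ruxolitinib (8 reported), from 6 to 20 for that of venetoclax (19 reported), from 0 to 8 for vehicle-treated against untreated mice (0 reported), and from 25 to 270 for day 7 against day 1 (197 reported).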
